A study of Mus musculus with 4 samples.

Results

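Fos, Fosb, Jun, Junb, Egr1, Egr2, Nr4a1, Nr4a2, Crem and Ier2 are immediate early genes or genes induced through cAMP, and their levels were compared between E16.5 mouse lungs with and without epithelial STK11. The set was chosen by the FPKM values of Egr1, which were higher in the Shh-Stk11 libraries, and the question was whether the other genes of this class followed it. The Egr1 values between genotypes are therefore given as a description, without a test. All 10 symbols were in the table of 22556 genes. A mean of at least 0.5 FPKM (read number normalized to transcript length and sequencing depth) over the 4 libraries was required for testing, which 8 of the 10 genes and 13770 of all genes passed. Egr2 and Fosb were under this level and are described by their values.

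The study compared 2 whole lungs of Control embryos (Shh-Cre; Stk11F/+) with 2 whole lungs of Shh-Stk11 embryos (Shh-Cre; Stk11F/F), all at embryonic day 16.5 and labelled as C57BL/6, although the methods of the study describe its mice as of mixed background. Both genotypes carried Shh-Cre, which is active in the lung epithelium and not in its mesenchyme, vessels or blood, and the Control embryos carried 1 floxed copy of Stk11, so that the comparison was between loss of both copies and loss of 1 copy in the epithelium. RNA was taken from the whole organ. The RNA of epithelial cells was therefore measured together with that of all other cells, and fewer cells of a type and less RNA per cell cannot be told apart.

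Immediate early genes are transcribed within minutes of a stimulus without new protein synthesis. Many are switched on through ERK signaling, ELK1 and SRF at CArG boxes, and through CREB at cAMP response elements (CRE), and their protein products are transcription factors that act on later genes. STK11 phosphorylates and activates the salt-inducible kinases, which hold the CREB co-activators CRTC in the cytoplasm, so that several genes of this class are known as targets of the CREB and CRTC pair. FOS and JUN proteins pair to form AP-1, EGR proteins bind GC-rich sites, NR4A proteins are orphan nuclear receptors, and Crem encodes activators and the cAMP-induced repressor ICER.

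The promoters of 4 of the genes are shown because they differ in exact matches to the core of the sequence through which CREB acts. Each is the 250 bases before the RefSeq transcription start on GRCm38.p6, 5′ to 3′ on the strand of the gene, and capitals mark the core CRE (TGACG or its complement CGTCA).
Nr4a1, chr15:101266596-101266845, plus strand: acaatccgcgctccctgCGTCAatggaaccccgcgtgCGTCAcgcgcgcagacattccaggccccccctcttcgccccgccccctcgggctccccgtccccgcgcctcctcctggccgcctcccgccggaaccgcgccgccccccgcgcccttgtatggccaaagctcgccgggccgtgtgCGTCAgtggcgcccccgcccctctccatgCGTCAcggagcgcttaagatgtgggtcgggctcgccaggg
Nr4a2, chr2:57124004-57124253, minus strand: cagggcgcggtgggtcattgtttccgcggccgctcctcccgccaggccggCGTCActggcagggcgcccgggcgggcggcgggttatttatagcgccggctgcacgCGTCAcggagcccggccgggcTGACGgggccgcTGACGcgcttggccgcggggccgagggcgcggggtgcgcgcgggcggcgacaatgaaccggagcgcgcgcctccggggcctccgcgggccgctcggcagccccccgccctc
Fos, chr12:85473640-85473889, plus strand: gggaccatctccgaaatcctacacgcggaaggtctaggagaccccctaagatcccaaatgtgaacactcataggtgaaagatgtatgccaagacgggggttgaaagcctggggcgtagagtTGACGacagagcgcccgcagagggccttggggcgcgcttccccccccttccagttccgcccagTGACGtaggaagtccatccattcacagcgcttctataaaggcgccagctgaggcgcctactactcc
Jun, chr4:95052223-95052472, minus strand: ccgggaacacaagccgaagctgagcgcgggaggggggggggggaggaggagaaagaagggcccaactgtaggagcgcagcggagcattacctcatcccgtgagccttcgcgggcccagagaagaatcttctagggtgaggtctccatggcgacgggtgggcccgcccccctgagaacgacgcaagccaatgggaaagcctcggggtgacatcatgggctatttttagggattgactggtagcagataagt
The Nr4a1 window held 4 core CREs, starting 233, 213, 69 and 40 bases before the transcription start. The Nr4a2 window also held 4, at 200, 144, 123 and 111 bases. Fos held 2, at 129 and 66 bases, and Jun held no exact match. A core CRE on either strand was found in 6 of the 7 genes with a promoter in the RefSeq table (Egr2, Fos, Fosb, Junb, Nr4a1 and Nr4a2, not Jun), against 17.7% of all 32817 windows of this length. Longer motifs were rarer. The full CRE (TGACGTCA, each of which holds a core CRE) was in 0 of the 7 genes and 1.55% of windows. The AP-1 site (TGANTCA) was in 0 of 7 and 6.75%, and the NR4A site NBRE (AAAGGTCA) was in 0 of 7 and 1.34%. The EGR site (GCGNGGGCG) was in 3 of 7 (Fosb, Nr4a1 and Nr4a2) against 4.7% of windows, and the CArG box was in 1 of 7 (Egr2) against 1.47%. A gene was counted where any of its windows held the motif, while the shares are of single windows. Egr2 had 5 windows, of which 3 held a core CRE and 4 a CArG box, and the other 6 genes had 1 each. These are exact matches of letters in a short window, so variants of a motif were not counted, and binding was not measured. The Jun window holds tgacatca, which differs from the full CRE in 1 base. Egr1, Crem and Ier2 were not in the promoter table.

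Depth was estimated from the smallest steps between low FPKM values at 30800000 to 38000000 reads per library, at which 1 read on a 2000-base transcript gave 0.0146 to 0.0180 FPKM. Stk11 was 44.0 and 45.5 FPKM in the Control lungs and 29.5 and 26.0 in the Shh-Stk11 lungs (log2 fold change -0.69, limma adjusted p = 0.0499), so its remaining RNA was measured in whole lung. Xist and Ddx3y set library Shh-Stk11 2 apart as the only male library of the 4. The ciliated cell markers Foxj1, Myb and Tekt1 all fell (3 of 3 tested; their list summed to 41.4 and 44.1 FPKM in Control and 14.8 and 13.1 in Shh-Stk11). Epithelial markers, most of whose FPKM was Sftpc, summed to 16196 to 17831 FPKM in Control and 8513 to 12537 in Shh-Stk11. Gene by gene, 4 of the 6 were fitted higher and 2 lower (median log2 fold change 0.19), so the sum does not follow most of the list. In limma 0 of 6 passed the adjusted threshold and 2 were higher at an unadjusted p under 0.05. No cell marker was at 0. Summed FPKM of endothelial markers was 451 to 540 FPKM in Control and 366 to 389 in Shh-Stk11, red blood cell markers 5544 to 5758 and 3726 to 4084, and mesenchymal markers 661 to 803 and 575 to 608. Of these 3 lists 0 genes passed the adjusted threshold in limma, and 2, 2 and 3 of them were lower at an unadjusted p under 0.05. The summed FPKM of immune markers was 325 and 288 in Control and 196 and 381 in Shh-Stk11, and that of smooth muscle markers was 396 and 450 and 384 and 457. Heart muscle markers summed to 101 and 223 FPKM in Control and 128 and 49.5 in Shh-Stk11, and all 4 tested were fitted lower (median log2 fold change -0.97). These sums overlapped between genotypes, with 0 genes past the adjusted threshold in limma and 1 immune, 0 smooth muscle and 0 heart genes at an unadjusted p under 0.05. The immune gene was Ptprc, at 1.63 and 1.33 FPKM in Control and 2.15 and 3.11 FPKM in Shh-Stk11. Over all tested genes 2.27% passed the adjusted threshold and 15.2% had an unadjusted p under 0.05 in limma. The part of cell makeup and sex in the values below was not tested.

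Egr1, a zinc finger factor that follows growth factor and ERK signaling, was 3.03 and 3.26 FPKM in the Control lungs and 6.26 and 6.84 FPKM in the Shh-Stk11 lungs. Means were 3.14 ± 0.160 and 6.55 ± 0.409 FPKM (SD, n = 2 each), a ratio of 2.08, and both Shh-Stk11 values lay above both Control values. About 494 and 439 reads stood behind the Control values and 826 and 970 behind the Shh-Stk11 values. Egr2, which directs myelination and hindbrain patterning, was barely present, at 0.219 and 0.138 FPKM in Control and 0.270 and 0.621 FPKM in Shh-Stk11. Both Shh-Stk11 values were above both Control values, with about 57 reads in library Shh-Stk11 2 against 12 to 23 in the others, and Egr2 was not tested. Egr3, a relative of Egr1 that is not among the 10 genes, was 0.846 and 1.13 FPKM in Control and 0.777 and 0.622 in Shh-Stk11 (log2 fold change -0.44, limma adjusted p = 0.542), and Egr4 was listed at 0 in every library. The EGR family therefore summed to 4.10 and 4.52 FPKM in Control and 7.31 and 8.08 FPKM in Shh-Stk11. Egr1 made up 74.0% and 72.1% of that sum in Control and 85.7% and 84.6% in Shh-Stk11. Both the sum and the share follow the Egr1 values by which the set was chosen, and they are no separate result. Nab2, a corepressor that binds EGR proteins and is itself an EGR target, was 24.4 and 24.9 FPKM in Control and 33.4 and 34.4 in Shh-Stk11, with a log2 fold change of 0.46 that did not pass (limma adjusted p = 0.111).

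**Figure D1:**
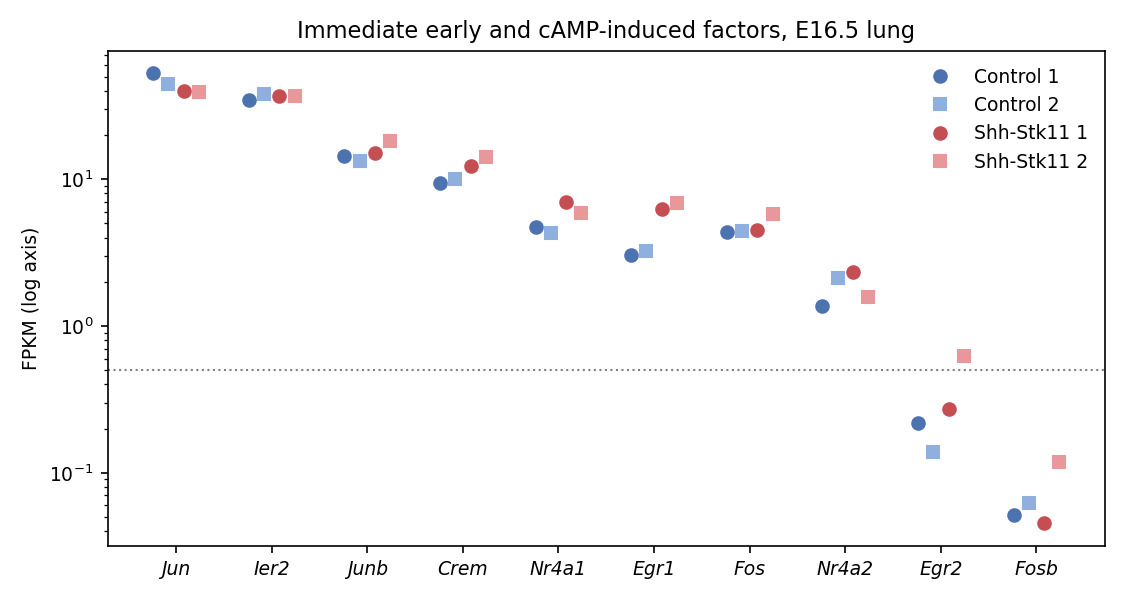
FPKM of each of the 10 genes in each of the 4 libraries, on a log axis, with 1 point per library, Control in blue and Shh-Stk11 in red. The dotted line marks 0.5 FPKM, the mean required for testing. Egr1 sits at 3.03 and 3.26 FPKM in Control and at 6.26 and 6.84 FPKM in Shh-Stk11, whereas the points of Ier2 and Nr4a2 overlap between genotypes.

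Nr4a1, an orphan nuclear receptor induced by cAMP and calcium, was 4.72 and 4.29 FPKM in Control and 6.99 and 5.88 FPKM in Shh-Stk11. Both Shh-Stk11 values were above both Control values. The log2 fold change was 0.50 (SE 0.16, 95% interval 0.13 to 0.88), and it did not pass the threshold over all genes (limma, unadjusted p = 0.0166, adjusted p = 0.184). Its relative Nr4a2, known for its role in dopamine neurons, was 1.37 and 2.13 FPKM in Control and 2.33 and 1.57 FPKM in Shh-Stk11. The Nr4a2 groups overlapped, and the interval of the log2 difference ran from -0.56 to 0.87 (limma adjusted p = 0.850), so that neither a fall nor a rise of moderate size was outside it. Nr4a1 was the main NR4A transcript, at 66.2% to 78.4% of the family's summed FPKM in the 4 libraries, and Nr4a3 did not exceed 0.0579 FPKM.

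Crem, whose internal promoter gives the ICER repressor, was 9.40 and 10.01 FPKM in Control and 12.3 and 14.3 FPKM in Shh-Stk11. The groups did not overlap, with a log2 fold change of 0.45 (SE 0.14, 95% interval 0.12 to 0.77) that did not pass the threshold over all genes (limma, unadjusted p = 0.0144, adjusted p = 0.173). Crem has 39 annotated transcripts in GENCODE M21, and 1 value per gene does not separate ICER from the activator forms. Creb1, the activator at the same elements, was 14.0 and 13.02 FPKM in Control and 21.7 and 18.8 FPKM in Shh-Stk11 (log2 fold change 0.58, limma adjusted p = 0.0885).

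Among the AP-1 subunits, Jun and Junb lay on opposite sides. Jun, an activator of proliferation genes, was the most abundant of the 10 genes, at 52.7 and 44.7 FPKM in Control and 39.6 and 39.5 FPKM in Shh-Stk11. Both Shh-Stk11 values were below both Control values (log2 fold change -0.29, SE 0.13, 95% interval -0.61 to 0.02, limma adjusted p = 0.365). Junb, which can oppose JUN at shared sites, was 14.4 and 13.2 FPKM in Control and 15.2 and 18.3 FPKM in Shh-Stk11. Its groups did not overlap either, and its log2 fold change of 0.27 (SE 0.14, 95% interval -0.08 to 0.61) did not pass (limma adjusted p = 0.448). The FPKM of Junb per FPKM of Jun within each library was 0.274 and 0.296 in Control and 0.383 and 0.463 in Shh-Stk11, a ratio chosen after its values were seen and given without a test. The summed FPKM of Jun, Junb and Jund overlapped between genotypes (87.2 to 99.7 in Control and 86.2 to 89.2 in Shh-Stk11), and the share of Jun in it was lower in Shh-Stk11, at 46.0% and 44.3% against 52.9% and 51.3%.

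**Figure D2:**
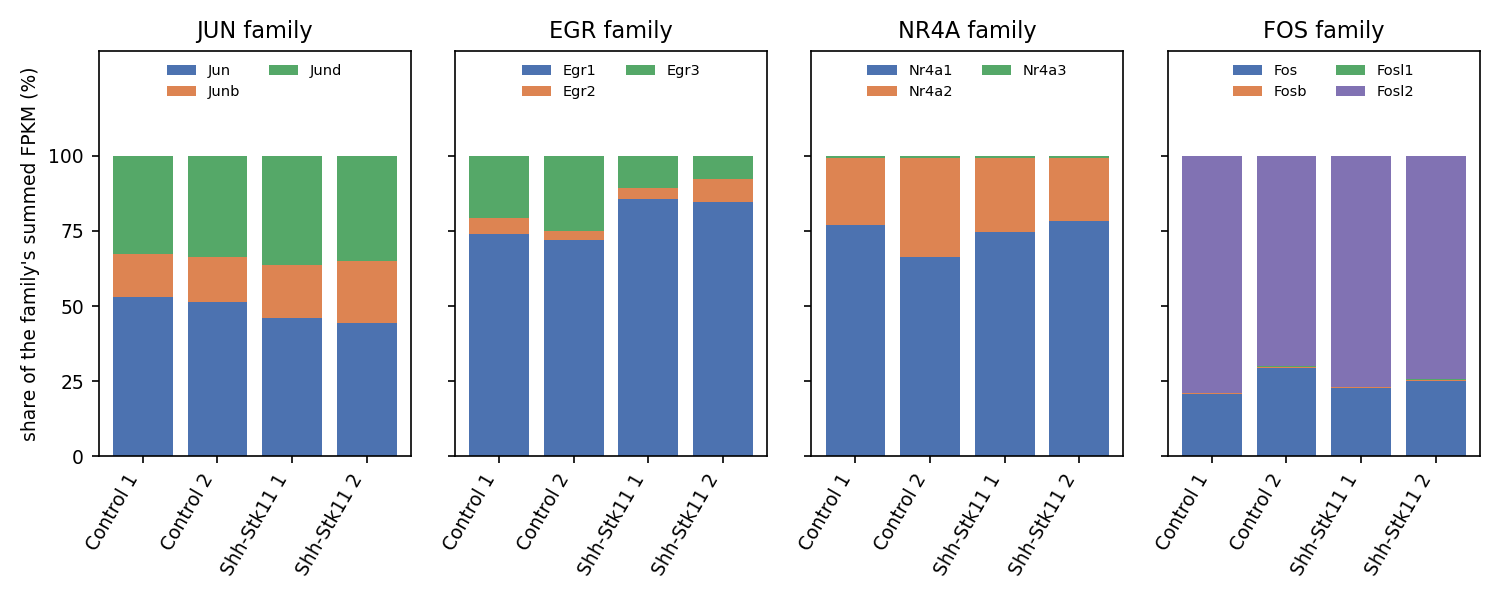
Share of each family member in the summed FPKM of the FOS, JUN, EGR and NR4A families, in percent, for each of the 4 libraries. Egr1 takes 72.1% and 74.0% of the EGR sum in Control and 84.6% and 85.7% in Shh-Stk11, and Jun takes a smaller part of the JUN sum in both Shh-Stk11 libraries. The Egr1 share follows the Egr1 values by which the set was chosen.

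Fos, the partner of JUN proteins and the classic immediate early gene, was 4.38 and 4.41 FPKM in Control and 4.497 and 5.78 FPKM in Shh-Stk11. The groups did not overlap, but library Shh-Stk11 1 was close to both Control libraries, and without Shh-Stk11 2 the log2 fold change was 0.03 (with all 4 libraries 0.21, SE 0.17, 95% interval -0.20 to 0.62, limma adjusted p = 0.618). Fosb was close to absent, at 0.0453 to 0.118 FPKM and about 5 to 14 reads per library, and its groups overlapped. The FOS family was mainly Fosl2, a slower member, at 69.8% to 79.1% of the family's FPKM, with a log2 fold change of 0.29 (limma adjusted p = 0.609). Ier2, a small nuclear protein induced with Fos and Egr1, was 34.9 and 38.01 FPKM in Control and 37.2 in both Shh-Stk11 libraries. The interval of its log2 difference was -0.26 to 0.31 (limma adjusted p = 0.935).

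In order of FPKM, the 10 genes in Control were Jun, Ier2, Junb, Crem, Nr4a1, Fos, Egr1, Nr4a2, Egr2 and Fosb. Nr4a1 and Fos did not differ beyond their spread there. In Shh-Stk11 the order differed in 1 place only, with Egr1 above Nr4a1 and Fos, and the values of Egr1 and Nr4a1 overlapped. The sum over the 10 genes was 125 and 120 FPKM in Control and 125 and 130 FPKM in Shh-Stk11, most of it from Jun and Ier2.

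Of the 7 tested genes other than Egr1, 0 passed an adjusted p of 0.05 in limma, against 2.27% of all tested genes (0.98% higher and 1.29% lower in Shh-Stk11). An unadjusted p under 0.05 was found for 2 of them (Crem and Nr4a1, both higher), against 15.2% of all tested genes (8.04% higher and 7.18% lower). Both Shh-Stk11 values were above both Control values in 4 of the 7 (Crem, Fos, Junb and Nr4a1), against 19.2% of tested genes, and below in 1 (Jun), against 27.6%, or 46.8% of tested genes in either direction. The fitted log2 fold change was above 0 in 6 of the 7, against 41.7% of tested genes. Their median was 0.21, beside -0.05 over all tested genes. The ratio of means was 2.08 for Egr1 and 2.5 for Egr2 and was lower than 2.08 for each of the other 8 genes. Nothing is read from these counts about the class, since its genes were chosen with the same contrast known.

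**Figure D3:**
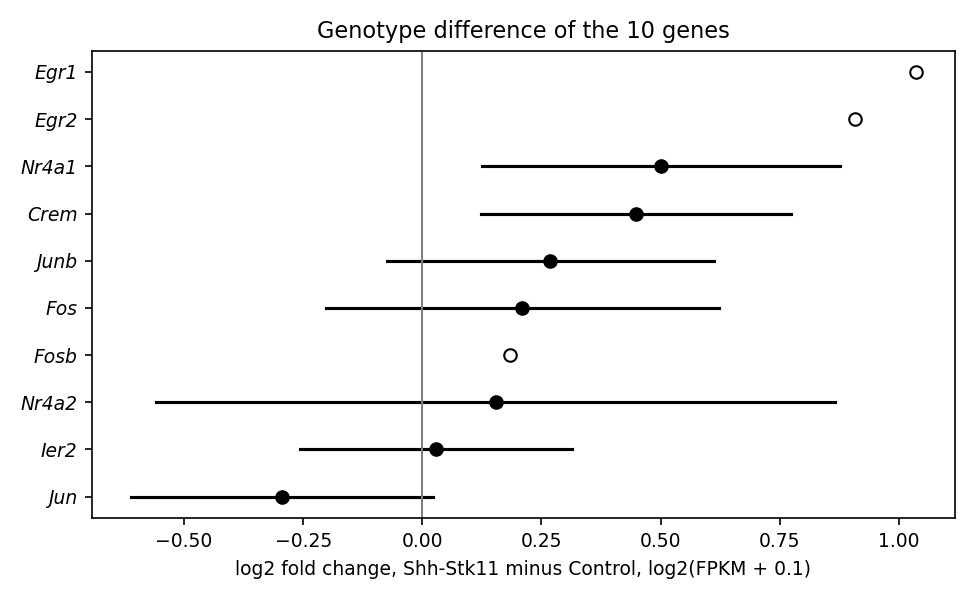
Log2 fold change (Shh-Stk11 over Control, on log2 of FPKM plus 0.1) of the 10 genes, with 95% limma intervals for the 7 tested genes other than Egr1, and points without an interval for Egr1, Egr2 and Fosb. Crem (0.45) and Nr4a1 (0.50) have intervals above 0, and the Jun interval (-0.61 to 0.02) reaches just past 0.

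The spread between libraries of 1 genotype was of the same order as most of these differences. Over all tested genes the median absolute log2 difference was 0.183 between the 2 Control libraries and 0.158 between the 2 Shh-Stk11 libraries. Of the 10 genes, 3 exceeded this median in Control and 7 exceeded it in Shh-Stk11. The 7 include Egr2 (about 12 to 57 reads per library) and Fosb (about 5 to 14). Both were under the mean required of the genes in the median, and their low read numbers limit the comparison. Library Shh-Stk11 2 held the highest value of 6 of the 10 genes. Between the Shh-Stk11 libraries the log2 difference (library 2 minus library 1) was 0.96 for Egr2, 0.58 for Fosb, 0.36 for Fos and 0.27 for Junb, and it was -0.55 for Nr4a2 and -0.25 for Nr4a1. Egr1 differed by 0.10 between the Control libraries and 0.13 between the Shh-Stk11 libraries, less than the median gene in both. Library Shh-Stk11 2 was the higher of its pair for 7 of the 10 genes (by 0.001 for Ier2), and Control 2 was the higher of the Control pair for 6. The lung with the higher Fos was not the one with the higher Nr4a1.

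**Figure D4:**
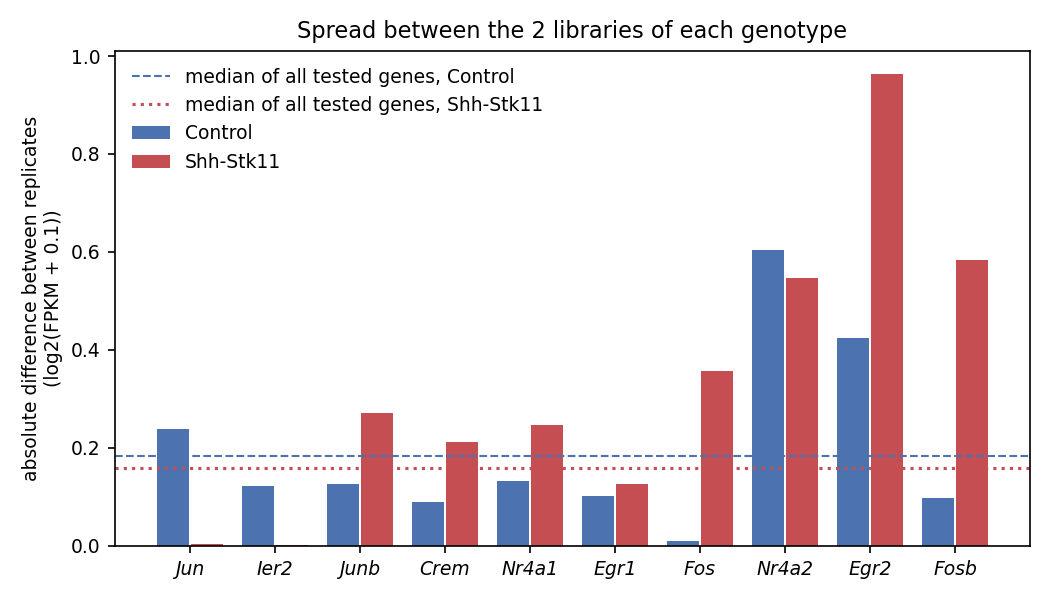
Absolute difference in log2(FPKM + 0.1) between the 2 libraries of each genotype for each of the 10 genes (bars, Control and Shh-Stk11), with the medians over all tested genes as lines (0.183 and 0.158). The Shh-Stk11 bar of Egr2 reaches 0.96, whereas both Egr1 bars (0.10 and 0.13) stay under the lines. Egr2 and Fosb have few reads and were under the mean required of the genes in the medians.

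Other genes around this class were compared from lists by role. Of 40 other immediate early genes, 34 were tested, 0 passed the adjusted threshold, and 1 was higher and 4 were lower at an unadjusted p under 0.05. Over all tested genes these shares were 2.27%, 8.04% and 7.18% in limma. Their median log2 fold change was -0.16, beside -0.05 over all tested genes, and it was 0.01 after a correction for length and GC content and -0.01 without Control 1. Atf3, a stress-induced factor that binds CREs, was 2.34 and 2.002 FPKM in Control and 3.17 and 4.47 FPKM in Shh-Stk11 (log2 fold change 0.77, limma adjusted p = 0.154). Ier3, an early gene linked to cell survival, was 44.3 and 32.7 FPKM in Control and 19.5 and 23.2 FPKM in Shh-Stk11 (log2 fold change -0.84, limma adjusted p = 0.0774). Maff, a small MAF factor, had a log2 fold change of -0.57 (limma adjusted p = 0.143). Dusp1, which switches off MAP kinases, was 19.9 and 21.7 FPKM in Control and 16.2 and 17.1 FPKM in Shh-Stk11.

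Of 25 CREB and CRTC target genes, 14 were tested, 4 of them from the 10 genes described here. Pde10a, Areg, Ppargc1a and Pde4d rose and 0 fell at an adjusted p of 0.05 in limma, against 0.98% and 1.29% of all tested genes. At an unadjusted p under 0.05, 6 were higher and 1 (Dusp1) was lower, and 4 of the 14 were fitted below 0. The median over the 10 tested genes that are not among those described here was 0.27, beside -0.05 over all tested genes. Areg, an EGF receptor ligand, went from 11.03 and 10.88 FPKM to 75.6 and 64.4 FPKM (log2 fold change 2.66, limma adjusted p = 0.0014). Pde10a, which degrades cAMP and cGMP, went from 0.660 and 0.707 FPKM to 5.67 and 4.88 FPKM (log2 fold change 2.78, limma adjusted p = 0.0033). Ppargc1a, a co-activator of mitochondrial genes, had a log2 fold change of 1.78 (limma adjusted p = 0.0053), and Pde4d, a cAMP phosphodiesterase, one of 1.53 (limma adjusted p = 0.0289). Pde4d lost its call in 6 of 15 alternatives, Ppargc1a in 3 of 14, Pde10a in 1 of 14 and Areg in 0 of 15. The list was written with earlier results of these libraries known and is not independent evidence of its direction. Crem (log2 fold change 0.45) and Nr4a1 (0.50) belong to this list and did not pass. The 4 genes that rose were set apart by that threshold, so their larger log2 fold changes are no separate result. Sik1, which is both a CREB target and a kinase upstream of CRTC, had a log2 fold change of 0.30 (limma adjusted p = 0.475).

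The regulators that act before immediate early genes passed in 0 of 26 cases (median log2 fold change 0.02, with 2 higher and 0 lower at an unadjusted p under 0.05, limma). Shares over all tested genes were 2.27% past the adjusted threshold and 15.2% at an unadjusted p under 0.05 in limma. Rps6ka3, a kinase of CREB and FOS, had a log2 fold change of 0.59 (limma adjusted p = 0.119) and the SRF partner Elk4 one of 0.51 (limma adjusted p = 0.528). ERK feedback genes, which are used as a readout of ERK signaling, passed in 0 of 12 cases (1 at an unadjusted p under 0.05, limma), with a median of -0.03 and a range of -0.20 to 0.36. Spry1, Spred1 and Etv4 had the log2 values farthest from 0, at 0.36, 0.25 and -0.20. Of 12 corepressors and partners of EGR and NR4A proteins, 0 passed (1 at an unadjusted p under 0.05, limma) and the median was -0.09. The extremes beside Nab2 were Batf3, an AP-1 partner, at -0.40 and Atf2, a CRE-binding factor, at 0.27.

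**Figure D5:**
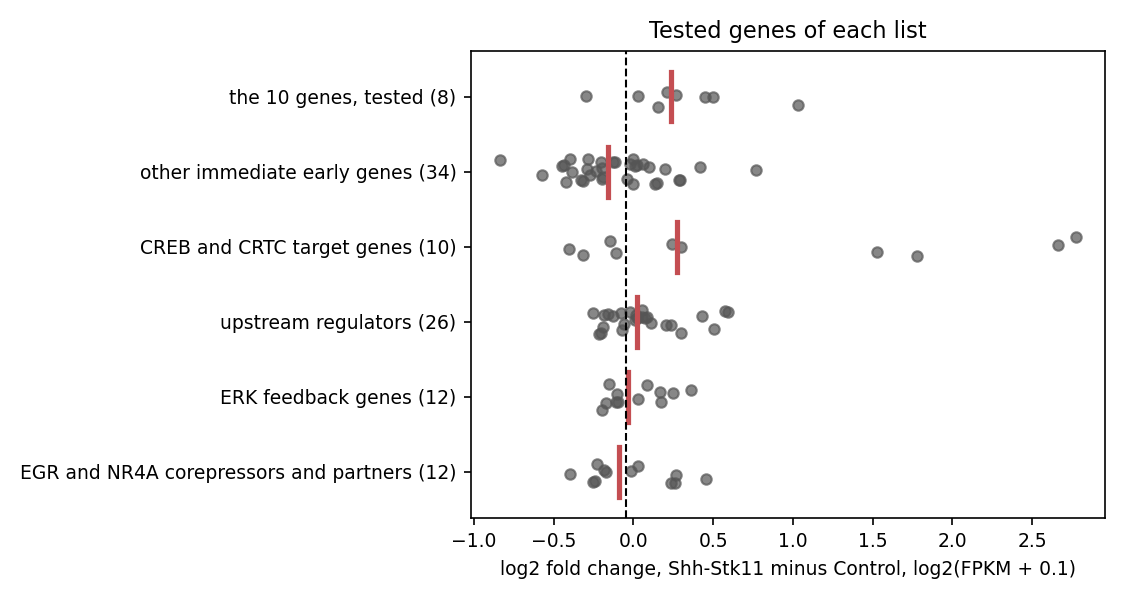
Log2 fold change of each tested gene in each list by role, with the list's median as a red line and the median of all tested genes (-0.05) as a dashed line. CREB and CRTC targets are drawn without those among the 10 genes. The CREB and CRTC targets reach 2.78 (Pde10a) and 2.66 (Areg), and the other immediate early genes lie between -0.84 and 0.77.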

How the data were processed

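Total RNA from whole E16.5 lungs (2 Control, 2 Shh-Stk11) was sequenced, and the authors deposited their FPKM values, with 1 value for each gene in each library. The submitters' processing notes name TopHat2 2.0.13 and Cufflinks 2.2.1 and the builds GRCm38 and mm9, without saying which step used which. Raw counts were not analysed here, and strand handling is not given in the sources used here. Jun, Junb and Crem overlap genes on the opposite strand, whose reads could not be separated if counting ignored strand.

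Testing required a mean of 0.5 FPKM or more and used log2(FPKM + 0.1) with limma 3.58.1 in R 4.3.3, with a variance trend, 2 residual degrees of freedom and Benjamini-Hochberg adjustment over 13770 genes, at a threshold of 0.05. The pseudocount makes changes of low genes smaller. With 2 libraries a group, p-values measure the spread between these libraries only. The fit was tested on simulated data. Read numbers were estimated from FPKM steps (66.7% to 73.1% of low values lay within 0.1 of a whole read).

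The 10 genes, the lists and the tests were chosen with earlier results of these data known. The text names Stk11, all 10 genes, in each other list the genes past the threshold and the 3 largest log2 fold changes (cell markers that did not pass are given as sums, Ptprc apart) and the 5 named genes nearest to Egr1, with 3 predicted or small RNA genes passed over. Dusp1, Egr3, Egr4, Fosl2, Jund, Nr4a3, Sik1, Ptprc, Xist and Ddx3y were added after their values were seen. Other pseudocounts, filters, scalings, trend settings, a length and GC correction, a replicate block and leaving out each library were tried.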

Additional observations from a re-analysis of the deposited data

How the results depend on the processing

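Of the 7 tested genes other than Egr1, 0 passed the adjusted threshold under any of the 16 alternatives, of which the filter of 5 FPKM left Fos and Nr4a2 untested. Nr4a1, Crem, Junb, Fos and Jun kept their sign wherever a value was given. With 1 library left out, Fos lay at 0.03 to 0.39 and Junb at 0.13 to 0.40, both lowest when Shh-Stk11 2 was dropped and highest when Shh-Stk11 1 was. In the same way Jun ranged from -0.41 (without Control 2) to -0.18 (without Control 1), Nr4a1 from 0.38 to 0.62 and Crem from 0.34 to 0.55. Nr4a2 ranged from -0.15 to 0.46 (-0.15 without Control 1 and -0.12 without Shh-Stk11 1) and Ier2 from -0.03 to 0.09 (-0.03 without Control 1). The correction for length and GC content moved Ier2 to 0.23, Junb to 0.48, Fos to 0.36, Jun to -0.16, Nr4a1 to 0.66 and Nr4a2 to 0.22, and left Crem at 0.44. The count of all genes past the adjusted threshold, 313 of 13770, became 587 with robust moderation, 200 with a filter of 5 FPKM, 186 after that correction and 61 with no filter. Leaving out 1 library gave 38 to 191 (49 without Control 1, 38 without Control 2, 169 without Shh-Stk11 1 and 191 without Shh-Stk11 2), where the lone library left in a genotype was assumed to vary like the other group. Fits with the replicate number as a block called 13 genes. Same-numbered libraries did not deviate together (correlation -0.114), and the crossed pairing, added after the data were seen, called 675. The median of the tested genes described here, Egr1 included, was 0.24. It came to 0.40 after the length and GC correction and 0.24 to 0.38 with 1 library left out (0.38 without Shh-Stk11 1). The median of other immediate early genes was 0.01 after the correction and -0.24 to -0.01 with 1 library left out (-0.24 without Control 2, -0.01 without Control 1). That of CREB and CRTC targets was 0.36 after the correction, 0.22 with no filter, 0.34 with quantile normalization and 0.32 to 0.41 with 1 library left out (0.41 without Control 1), and that of upstream regulators -0.10 to 0.13. The cause of these shifts was not tested. Egr1 lay between 0.86 and 1.10. Low read numbers limit Egr2 and Fosb.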

Other observations

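With 3 predicted or small RNA genes passed over, the named genes whose centred log2 values over the 4 libraries lay nearest to those of Egr1 were Zfp229 (distance 0.052), Kcnj11 (0.109), Fgd4 (0.15), Gbp7 (0.153) and Zdhhc21 (0.155). Zfp229, a zinc finger gene, was 1.84 and 1.88 FPKM in Control and 3.80 and 4.10 FPKM in Shh-Stk11, and Zdhhc21, a palmitoyltransferase, was 7.31 and 7.39 FPKM and 15.8 and 15.0 FPKM. The distance follows the genotype difference by which Egr1 was picked, and these values are a description.

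The tested genes of 2 lists of stress response did not pass the adjusted threshold in limma, against 2.27% of all tested genes. In lists this short, 0 calls are not a result about stress. Hspa1a and Hspa1b were under the mean required for testing. Of 8 tested heat shock genes 0 passed and 0 had an unadjusted p under 0.05 in limma, against 15.2% of all tested genes. Their median log2 fold change was -0.09, with the values farthest from 0 at -0.28 for Hspe1, -0.26 for Hspb1 and -0.21 for Hsph1. Of 10 hypoxia genes 0 passed and 1 was lower at an unadjusted p under 0.05 (median -0.10). That gene was Egln3, an oxygen sensor, at 40.1 and 38.3 FPKM in Control and 25.7 and 26.1 FPKM in Shh-Stk11 (log2 fold change -0.59, limma adjusted p = 0.0592). Ddit4 was at 0.35 and Car9 at -0.19 on the same scale.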
